A study of Homo sapiens with 6 samples.

Results

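The genes described here are 9 transcriptional targets of the tumor suppressor p53, namely CDKN1A, MDM2, BBC3, BAX, GADD45A, SESN1, SESN2, TIGAR and RRM2B, chosen by gene symbol. All 9 were found among the 37887 symbols of the count table, and all 9 passed the filter on low counts. They were measured by RNA-seq in BT-549 cells, an established human triple-negative breast cancer (TNBC) line, to determine how silencing IRF1 changes their transcripts. IRF1 is a DNA-binding activator induced by interferon (IFN). There were 3 control samples, given 0.1% DMSO as the vehicle, and 3 IRF1shRNA samples, given 500 ng/ml doxycycline, which induces expression of the short hairpin RNA (shRNA) from a tetracycline-regulated vector. The sample titles assign a control shRNA to the first group, whereas the series text describes one cell population with an inducible IRF1 shRNA for both groups. As the treatments are given for these samples, doxycycline was used only where IRF1 was silenced. Effects of the drug and of the hairpin therefore cannot be told apart. Legends of the paper that name IRF1shRNA cells mention no doxycycline for them, so its use is not settled under the titles. If the titles are right, the groups are also separately transduced cell populations, and differences between these cannot be told apart from silencing. A single hairpin was used, cells were transduced and selected in culture, and the duration of silencing for RNA-seq is not given in the sources used here.

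p53 is stabilized by DNA damage and other stress, binds paired copies of a short DNA motif and activates genes that arrest the cell cycle, repair DNA or cause apoptosis. MDM2 is a ubiquitin ligase that degrades p53 and is itself induced by p53, which closes a negative feedback loop. Several of these genes also respond to other factors. CDKN1A, for example, is known to be activated by IRF1 in cells with damaged DNA, and SESN2 by the stress factor ATF4.

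Promoter windows reaching from 250 bases before to 50 bases after an annotated start site were available for 7 of the 9 genes (RefSeq, GRCh38.p14), with 4 windows for MDM2 and 3 for SESN1. GADD45A and RRM2B have no entry. Each window was searched on both strands for the p53 half-site consensus and for GAAA, any 2 bases and GAAA, a motif of interferon regulatory factors (IRF). The p53 half-site was found in 6.63% of all 35116 windows and in 1 of the 12 windows of these 7 genes, a window of SESN1. A complete p53 site, with both half-sites 0 to 13 bases apart and no letter off, was found in 0.0285% of all windows and in none of the 7 genes. When adjacent half-sites with at most 1 letter off in each were allowed, a search chosen after the sequences were seen, 0.387% of windows matched, among them 2 of the 4 windows of MDM2, which overlap and hold the same match. The IRF motif was found in 3.57% of windows and in 1 of the 12 windows of the 7 genes, that of BBC3. One window with a match is shown for each of MDM2, SESN1 and BBC3, with the one for CDKN1A, which has none and is shown because CDKN1A leads the results. Capitals mark the matched letters, and each window is written 5′ to 3′ on the strand of the gene.
MDM2, chr12:68808767-68809066, plus strand: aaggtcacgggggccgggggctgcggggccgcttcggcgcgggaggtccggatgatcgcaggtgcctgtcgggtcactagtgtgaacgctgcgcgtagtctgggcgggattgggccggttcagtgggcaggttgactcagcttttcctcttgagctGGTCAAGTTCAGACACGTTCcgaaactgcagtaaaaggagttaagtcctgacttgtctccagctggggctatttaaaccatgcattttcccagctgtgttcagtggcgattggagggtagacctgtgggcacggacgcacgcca
SESN1, chr6:109008939-109009238, minus strand: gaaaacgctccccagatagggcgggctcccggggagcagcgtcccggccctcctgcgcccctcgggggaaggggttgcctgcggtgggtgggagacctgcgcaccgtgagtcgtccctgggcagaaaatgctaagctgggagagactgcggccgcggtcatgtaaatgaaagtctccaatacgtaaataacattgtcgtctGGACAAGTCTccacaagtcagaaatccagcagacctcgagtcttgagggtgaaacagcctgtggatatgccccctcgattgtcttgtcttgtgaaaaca
BBC3, chr19:47232618-47232917, minus strand: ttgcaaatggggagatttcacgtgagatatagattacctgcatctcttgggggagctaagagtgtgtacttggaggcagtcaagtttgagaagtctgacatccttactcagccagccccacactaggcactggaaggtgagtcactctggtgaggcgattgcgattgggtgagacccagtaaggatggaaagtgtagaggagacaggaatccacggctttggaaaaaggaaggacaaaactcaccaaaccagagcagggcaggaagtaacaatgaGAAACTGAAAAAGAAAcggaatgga
CDKN1A, chr6:36678464-36678763, plus strand: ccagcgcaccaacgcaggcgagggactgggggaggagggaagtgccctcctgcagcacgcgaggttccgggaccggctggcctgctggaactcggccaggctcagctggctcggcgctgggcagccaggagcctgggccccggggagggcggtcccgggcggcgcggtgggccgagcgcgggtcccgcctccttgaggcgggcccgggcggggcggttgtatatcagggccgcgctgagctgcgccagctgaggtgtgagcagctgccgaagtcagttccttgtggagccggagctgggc
The MDM2 match begins at position −94 relative to the start site of the window shown and at −101 in the other, and the SESN1 half-site at −49. In BBC3, GAAACTGAAAAAGAAA holds 2 overlapping copies of the IRF motif, which begin at positions 26 and 32 after the start site. A match is a description of letters and not evidence of binding, and p53 sites outside these windows were not searched.

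Expression is given in CPM, the read count of a gene on a scale where a library sums to 1000000, with library totals adjusted by TMM factors. Below, the IRF1shRNA samples are also called silenced cells. Means are given with the SD over n = 3 libraries a group. The total count per library was between 55143808 and 160436234, IRF1shRNA replicate 2 being the least deep, and the 9 genes were counted between 255 and 15061 times per library. Log2 fold changes compare IRF1shRNA with control samples and are given with their standard error (SE). A gene was called when its Benjamini-Hochberg adjusted p in edgeR's quasi-likelihood test was under 0.05 over all 18851 genes tested. In bulk RNA, fewer cells of a kind and less RNA per cell cannot be told apart. The targeted gene IRF1 was at 45.3, 48.1 and 51.5 CPM in control cells and at 13.8, 14.9 and 14.6 CPM in silenced cells, or 29.9% of control (log2 fold change −1.74 ± 0.06, SE; adjusted p 4.53e-13, edgeR). The mesenchymal markers VIM, ZEB1, CD44, AXL and CDH2 were all expressed, with a summed level of 3150 to 3270 CPM in control and 2600 to 2710 CPM in silenced cells. The hormone receptor genes ESR1 and PGR were at or under 0.325 CPM in all 6 libraries, whereas ERBB2, which encodes HER2, fell from 50.8 ± 3.67 CPM to 36.4 ± 1.60 CPM (SD; log2 fold change −0.48 ± 0.06, SE; adjusted p 1.47e-06, edgeR). None of 5 immune markers reached 1 CPM. Of 4 endothelial and fibroblast markers 1 exceeded 1 CPM, COL1A1, and the list summed to between 1070 and 1250 CPM in control and between 1000 and 1110 CPM in silenced cells. The 4 epithelial markers summed to between 8.38 and 8.89 CPM in control and between 3.91 and 4.46 CPM in silenced cells. Of these, KRT18 (mean 6.34 to 2.92 CPM) and KRT8 (1.52 to 0.441 CPM) fell, whereas CDH1 and EPCAM, both under 1 CPM, were not called. The part of these marker shifts in the results was not tested.

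Of the 9 genes, 5 fell and 2 rose after IRF1 silencing, whereas TIGAR and RRM2B were not called. GADD45A fell to 38.7% and CDKN1A to 47.8% of control, MDM2, BAX and SESN2 fell by smaller amounts, and BBC3 and SESN1 rose. These counts are read against a background in which 50.5% of all genes tested were called, 26.4% as lower and 24.1% as higher, and whether 7 of 9 differs from that background was not tested. For 7 of the 9 genes all values of one group lay beyond those of the other, as they did for 56.8% of all genes tested. The median log2 fold change was −0.18 over the 9 genes and −0.0024 over all genes. GADD45A and CDKN1A had the largest changes of the 9 genes, and 4.1% of all genes had a larger absolute log2 fold change than GADD45A and 7.76% a larger one than CDKN1A. By the same measure 41.0% of genes exceeded MDM2 and 93.0% exceeded TIGAR.

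**Figure D1:**
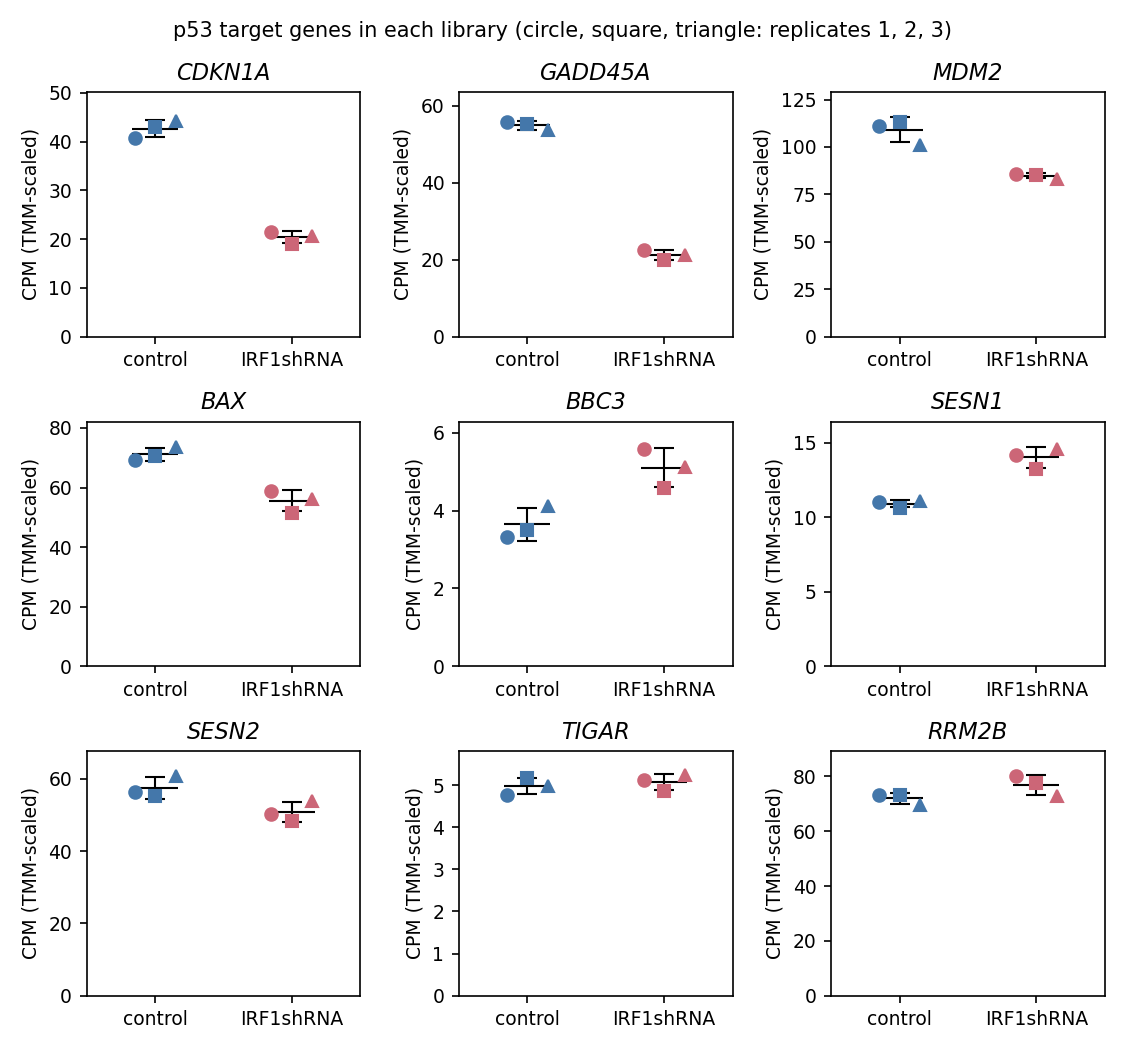
Each panel plots CPM (TMM-scaled, axis from 0) of a p53 target gene in the 3 control and 3 IRF1shRNA libraries, with the mean and SD in black. The IRF1shRNA points lie below all control points for CDKN1A, GADD45A, MDM2, BAX and SESN2, above them for BBC3 and SESN1, and the ranges of the groups overlap for TIGAR and RRM2B, where 2 of the 3 RRM2B points after silencing are above all control points.

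Genes that arrest the cell cycle were examined first. CDKN1A encodes p21, an inhibitor of cyclin-dependent kinases that p53 induces to stop cells before DNA replication. Its transcripts were at 40.7, 42.9 and 44.2 CPM in the 3 control libraries and at 21.4, 19.0 and 20.7 CPM in the 3 libraries of silenced cells. The groups were well separated, and the lowest control value was higher than every IRF1shRNA value. CDKN1A fell from 42.6 ± 1.75 CPM to 20.4 ± 1.20 CPM (SD), or 47.8% of control. This difference was a log2 fold change of −1.06 ± 0.06 (SE; adjusted p 1.32e-10, edgeR). It stayed between −1.10 and −1.01 over 14 alternatives. In the GENCODE 29 annotation (GRCh38) CDKN1A spans chr6:36676460-36687339 and shares 146 exonic bases with DINOL, a noncoding RNA on the opposite strand. DINOL was counted 2 to 7 times per library against 1057 to 6585 counts of CDKN1A.

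GADD45A encodes a small stress protein that takes part in growth arrest and DNA repair. Its level was 55.9, 55.2 and 53.7 CPM in control cells, as against 22.6, 19.9 and 21.2 CPM in silenced cells. No other of the 9 genes had a larger change. GADD45A fell from 54.9 ± 1.09 CPM to 21.2 ± 1.35 CPM (SD), or 38.7% of control, and its log2 fold change was −1.37 ± 0.05 (SE, adjusted p 2.01e-12 in the edgeR test). The control values lay close together, and every one of them was above every value after silencing. GADD45A spans chr1:67685061-67688338, and no other annotated gene shares its exons.

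MDM2, the ligase that limits p53, was at 111, 113 and 101 CPM in control cells and at 86.0, 85.4 and 83.2 CPM in silenced cells. Control replicate 3 was the lowest control and still higher than all IRF1shRNA samples. MDM2 fell to 78.2% of control (log2 fold change −0.36 ± 0.05, SE; adjusted p 6.29e-06, edgeR). MDM2 spans chr12:68808176-68850686 and shares 133 exonic bases with the gene of carboxypeptidase M on the opposite strand, which was itself counted 3029 to 7799 times per library. It also shares 785 exonic bases with an antisense RNA, AC025423.4, and 439 with a processed pseudogene on its own strand. The use of strand in counting is not given in the sources used here, so reads in these stretches may belong to either gene.

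The pair of apoptosis genes moved in opposite directions. BAX encodes the protein that forms pores in the outer mitochondrial membrane, and BBC3 encodes PUMA, a BH3-only protein that activates it. BAX was at 69.1, 70.7 and 73.6 CPM in control cells and at 58.8, 51.6 and 56.2 CPM in silenced cells. It fell to 78.1% of control (log2 fold change −0.35 ± 0.05, SE; adjusted p 1.09e-05, edgeR). BBC3 was much less abundant, at 3.32, 3.50 and 4.12 CPM in control cells and at 5.59, 4.59 and 5.12 CPM in silenced cells. The lowest IRF1shRNA value, in replicate 2, was above the highest control value by a small margin. BBC3 rose from 3.65 ± 0.423 CPM to 5.10 ± 0.497 CPM (SD; log2 fold change 0.49 ± 0.10, SE; adjusted p 7.73e-04, edgeR). BAX spans chr19:48954815-48961798 and BBC3 lies on the same chromosome, at chr19:47220822-47232766 on the minus strand. BBC3 is the gene whose window, printed above, holds the IRF motif, and binding of IRF1 there was not measured in these data.

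Sestrins, which limit mTORC1 signaling and oxidative stress, also differed in direction. SESN1 was at 11.0, 10.6 and 11.1 CPM in control cells and at 14.2, 13.2 and 14.6 CPM in silenced cells. The SESN1 values in control samples were close together and all lower than those after silencing. It rose to 128% of control (log2 fold change 0.36 ± 0.07, SE; adjusted p 2.36e-04, edgeR). SESN2 was at 56.4, 55.3 and 60.9 CPM in control cells and at 50.4, 48.4 and 53.9 CPM in silenced cells. The gap between the groups was small, from 53.9 CPM in IRF1shRNA replicate 3 to 55.3 CPM in control replicate 2. SESN2 fell to 88.5% of control (log2 fold change −0.18 ± 0.05, SE; adjusted p 0.00777, edgeR). The SESN2 call was lost without control replicate 3 (log2 fold change −0.13, adjusted p 0.0605 in the edgeR test) and under scaling by library size only (−0.12, adjusted p 0.0581). SESN1 spans chr6:108986437-109094819 on the minus strand and shares 363 exonic bases with an antisense RNA, AL390208.1, and SESN2 spans chr1:28259527-28282491.

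TIGAR and RRM2B, which serve metabolism and DNA synthesis, were not called. TIGAR encodes a phosphatase that lowers glycolytic flux and favors the pentose phosphate pathway. It was at 4.77, 5.17 and 4.99 CPM in control cells and at 5.13, 4.86 and 5.23 CPM in silenced cells, and the ranges overlapped. Its log2 fold change was 0.03 ± 0.08 (SE), with a 95% interval from −0.14 to 0.21 and an adjusted p of 0.778 in the edgeR test. TIGAR spans chr12:4307763-4354593 and shares 1711 of its 4017 exonic bases with a protein-coding model on the same strand, AC008012.1, and how reads of shared exons were counted is not given. RRM2B encodes the p53-inducible subunit of ribonucleotide reductase, which supplies nucleotides for DNA repair. It was at 73.1, 73.2 and 69.6 CPM in control cells and at 80.2, 77.5 and 72.9 CPM in silenced cells. IRF1shRNA replicate 3 was lower than a pair of the controls, so the ranges overlapped. The RRM2B log2 fold change was 0.10 ± 0.05 (SE), with a 95% interval from −0.0012 to 0.19 and an adjusted p of 0.0949 in the edgeR test. RRM2B was called as higher under 4 of 14 alternatives, among them library size only (0.15, adjusted p 0.0132) and the fit without IRF1shRNA replicate 3 (0.13, adjusted p 0.0392).

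**Figure D2:**
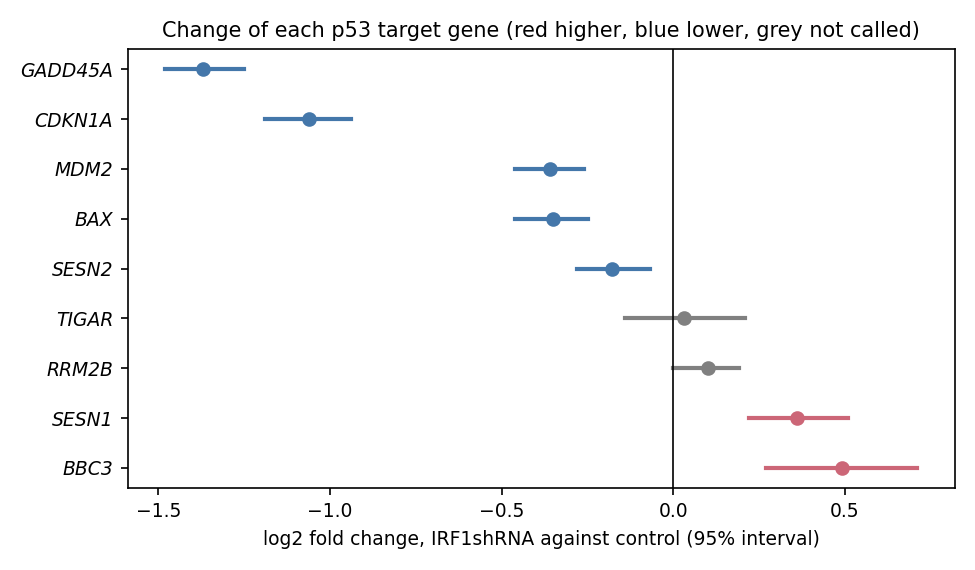
The log2 fold change of each p53 target gene (IRF1shRNA against control) is drawn as a point with its 95% interval from the edgeR test, blue for genes called lower, red for genes called higher and grey for those not called. GADD45A (−1.37) and CDKN1A (−1.06) lie far to the left, and the intervals of TIGAR and RRM2B include 0.

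To compare the genes with each other, CPM was divided by the length of all annotated exons of a gene (GENCODE 29), which gives CPM per kilobase. BAX and GADD45A had the highest levels in control samples, at 27.5 ± 0.885 and 26.6 ± 0.528 CPM per kilobase (SD), and their ranges overlapped. SESN2 (mean 16.7), CDKN1A (14.0), RRM2B (between 12.5 and 13.2), MDM2 (8.17) and SESN1 (2.13) followed, each with a range of control values that did not overlap with its neighbor's. TIGAR (1.19 to 1.29) and BBC3 (1.04 to 1.30) had the lowest levels, and their ranges overlapped. In IRF1shRNA samples BAX remained highest, at 21.5 ± 1.41 CPM per kilobase, whereas GADD45A had dropped to the fourth position at 10.3 ± 0.651. There the ranges of SESN2 (14.0 to 15.6) and RRM2B (13.1 to 14.5) overlapped, as did those of CDKN1A (6.24 to 7.02) and MDM2 (6.26 to 6.48). The annotation release behind the counts is not given in the sources used here, so these lengths are approximate.

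Each gene was then set against a relative or counterpart in the same library, as a log2 ratio of their counts (with 0.5 added to each), which does not depend on how libraries are scaled. CDKN1B encodes p27, a relative of p21 that is regulated mainly through protein stability. It rose from 65.4 ± 1.77 CPM to 94.5 ± 3.30 CPM (SD; log2 fold change 0.53 ± 0.04, SE). The log2 ratio of CDKN1A to CDKN1B was −0.67, −0.58 and −0.61 in control samples and −2.16, −2.25 and −2.23 in IRF1shRNA samples. The difference of −1.60 thus joined a fall of CDKN1A with a rise of CDKN1B. PMAIP1 encodes NOXA, a BH3-only protein like PUMA, and fell to 39.9% of control, from 18.2 ± 0.401 CPM to 7.26 ± 0.155 CPM. The log2 ratio of BBC3 to PMAIP1 was −2.44, −2.41 and −2.12 in control samples and −0.41, −0.63 and −0.50 in IRF1shRNA samples. This difference of 1.81 was the largest of the 8 pairs compared, with BBC3 and PMAIP1 called in opposite directions.

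RRM2, the subunit of ribonucleotide reductase used in S phase, fell to 65.5% of control (log2 fold change −0.61 ± 0.04, SE). The log2 ratio of RRM2B to RRM2 was −2.60, −2.61 and −2.61 in control samples and −1.86, −1.93 and −1.91 in IRF1shRNA samples, with a difference of 0.71. GADD45B, a close relative of GADD45A, was lower as well (−0.35 ± 0.07, SE), but the log2 ratio of GADD45A to GADD45B still moved from 1.36 ± 0.09 to 0.34 ± 0.18 (SD). The ratio of SESN2 to SESN1 moved from 2.40 ± 0.05 to 1.86 ± 0.03 on the log2 scale. MDM4, which inhibits p53 alongside MDM2, had 99.8 ± 3.81 CPM in control cells and 101 ± 8.14 CPM in silenced cells, with a log2 fold change of 0.01 ± 0.05 (SE) that was not called. The log2 ratio of MDM2 to MDM4 was accordingly 0.12 ± 0.03 in control and −0.24 ± 0.10 in IRF1shRNA samples (SD). BAK1, the other pore-forming protein, fell with BAX (−0.22 ± 0.06, SE), and their log2 ratio differed between the groups by −0.14. PFKFB3, a bifunctional enzyme that raises glycolytic flux, was not called (−0.11 ± 0.05, SE), and the log2 ratio of TIGAR to PFKFB3 differed by 0.14. With 0.5 added to each count, the ratios of the groups did not overlap for any of the 8 pairs, but the separation of TIGAR to PFKFB3 was lost without that addition (two-sided exact permutation p 0.20). The two-sided exact permutation p was otherwise 0.10 for each, which is the smallest that 3 against 3 samples allow, and 0.10 after adjustment over the 8 pairs, so no pair could pass a threshold of 0.05.

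**Figure D3:**
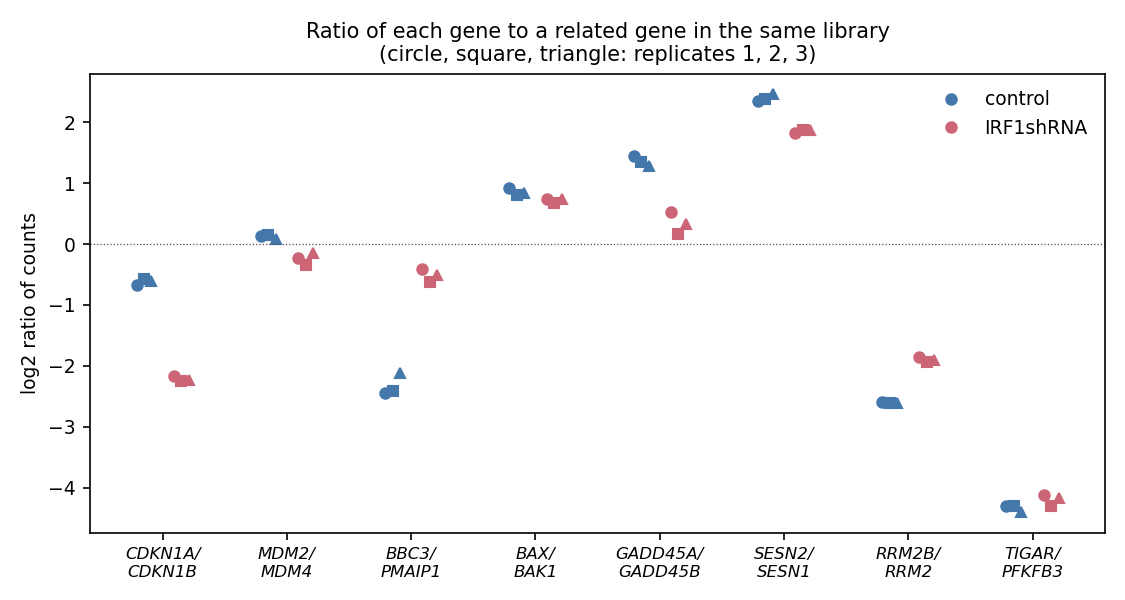
The y axis gives the log2 ratio of counts of each gene to a related gene within a library, for 3 control (blue) and 3 IRF1shRNA (red) libraries. The points of CDKN1A to CDKN1B shift down from about −0.62 to −2.22 on average, and those of BBC3 to PMAIP1 shift up from −2.33 to −0.51.

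A list of 20 genes of p53 regulation was assessed next. Of the 20 genes, 7 were higher and 5 lower, with a median log2 fold change of 0.01, compared with 24.1% higher and 26.4% lower among all genes. ATM, the kinase that signals DNA double-strand breaks to p53, rose from 102 ± 4.79 CPM to 137 ± 2.46 CPM (SD; 0.43 ± 0.04, SE). CDKN2A, which encodes p16 and the MDM2 inhibitor ARF, fell from 320 ± 23.4 CPM to 215 ± 15.1 CPM (−0.58 ± 0.06, SE). The counts do not separate the transcripts of p16 and ARF.

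A wider set of 70 other p53 targets was then examined, of which 63 were tested. In this set 33 genes were lower and 12 higher, with a median log2 fold change of −0.23. The corresponding shares among all genes were 26.4% and 24.1%, and no test of the set was made.

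Among 10 tested genes of cell cycle control, 3 rose and 3 fell, compared with 24.1% higher and 26.4% lower among all genes. ZMAT3, which encodes an RNA-binding protein, rose from 44.9 ± 2.01 CPM to 83.4 ± 3.89 CPM (SD), with a log2 fold change of 0.89 ± 0.05 (SE). Its direction was opposite to that of CDKN1A. CCNG1, which encodes cyclin G1, fell to 73.2% of control (−0.45 ± 0.04, SE). BTG2, an antiproliferative gene outside the naming rule and chosen after its values were seen, rose from 1.07 ± 0.108 CPM to 3.51 ± 0.216 CPM.

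Of 16 tested genes of apoptosis, 8 fell and 4 rose, as against 26.4% lower and 24.1% higher among all genes. PHLDA3, an inhibitor of AKT, fell from 21.9 ± 3.12 CPM to 5.02 ± 0.443 CPM (SD; log2 fold change −2.11 ± 0.10, SE). PERP, which encodes a membrane protein of desmosomes, fell to 54.0% of control (−0.89 ± 0.06, SE). AEN, a nuclease of apoptotic cells, rose to 145% of control (0.54 ± 0.05, SE). The receptors for the death ligand TRAIL did not move together. TNFRSF10D, which encodes a decoy receptor without a working death domain, rose from 6.14 ± 0.510 CPM to 26.2 ± 1.32 CPM (2.09 ± 0.08, SE), or 427% of control. TNFRSF10A, which encodes death receptor 4, fell from 5.48 ± 0.294 CPM to 2.10 ± 0.238 CPM (−1.40 ± 0.10, SE). TNFRSF10B, which encodes death receptor 5, was far more abundant, at 153 ± 1.63 CPM in control and 160 ± 6.24 CPM in silenced cells, and was not called (0.07 ± 0.04, SE, adjusted p 0.216 in the edgeR test). The other decoy gene, TNFRSF10C, was counted 6, 1 and 1 times in control libraries and 66, 17 and 104 times in IRF1shRNA libraries. FAS, the receptor of FAS ligand, fell to 46.2% of control (−1.15 ± 0.12, SE). TNFRSF10A, TNFRSF10B, TNFRSF10C and FAS are outside the naming rule and were picked once their values were known.

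In DNA repair, 3 of 6 tested genes rose and 2 fell. Shares of all genes, 26.4% lower and 24.1% higher, apply to each role in this paragraph, and no role was tested. ASCC3, which encodes a DNA helicase, rose to 127% of control (log2 fold change 0.34 ± 0.05, SE), and POLH, which encodes the translesion polymerase eta, fell to 70.2% (−0.51 ± 0.04, SE). Among 12 tested genes of metabolism and autophagy, 6 fell and 2 rose. The lysosomal fucosidase gene FUCA1 rose to 138% of control (0.47 ± 0.08, SE) and the hydrolase gene CMBL fell to 67.7% (−0.56 ± 0.08, SE). Secreted and other products had 11 of 15 tested genes lower and 0 higher in the edgeR test, and 0 were higher at an unadjusted p under 0.05 or by DESeq2. TRIM22, which is also an IFN-induced gene, fell from 4.79 ± 1.70 CPM to 0.104 ± 0.0364 CPM (SD), or 2.17% of control. TLR3, likewise induced by IFN, fell to 14.0% of control. It was chosen after its values were seen. Of 4 tested noncoding targets 3 fell and 0 rose, likewise by unadjusted p and by DESeq2, among them NEAT1, the scaffold RNA of paraspeckles, at 72.7% of control (−0.46 ± 0.08, SE).

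**Figure D4:**
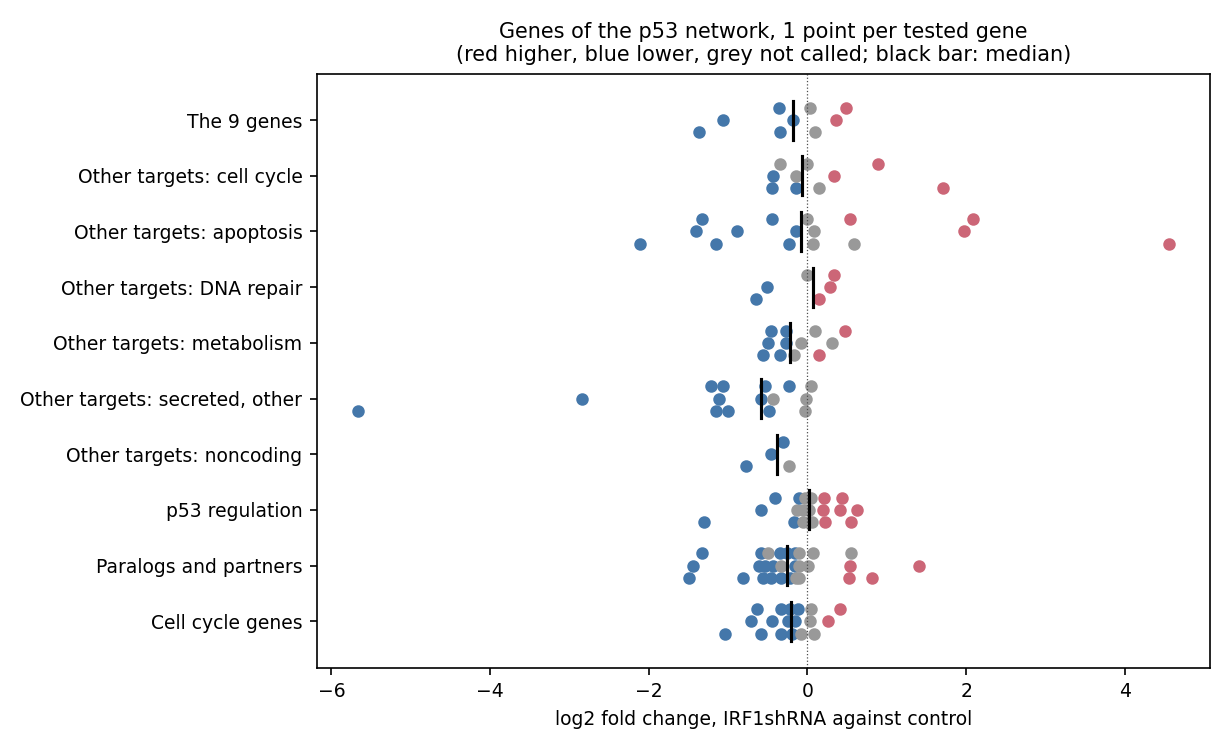
Each point is the log2 fold change (IRF1shRNA against control) of a tested gene, in rows for the 9 genes, the other p53 targets by role, p53 regulation, paralogs and partners, and cell cycle genes, with black bars for the medians. Every row holds genes in blue (called lower), and red points (called higher) are missing only from the rows of secreted and of noncoding targets, where medians were −0.58 and −0.39.

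Paralogs and binding partners of the 9 genes were tested for 29 of 30 genes, with 16 lower, 4 higher and a median log2 fold change of −0.26, as against 26.4% lower and 24.1% higher among all genes. Under a filter of 1 CPM in 3 or more samples, 2 of them were higher. PMAIP1 of this list was also counted among the other p53 targets, and MDM4 among the genes of p53 regulation. PFKFB4, a relative of PFKFB3, fell to 35.7% of control (−1.49 ± 0.08, SE). CDK6, a kinase of G1 phase, rose to 145% (0.54 ± 0.04, SE). Cell cycle genes that p21 is known to lower through the RB family were examined as well. Of 18 such genes, 12 were lower and 2 higher, with a median of −0.21, and the same shares of all genes apply. MYBL2 fell from 356 ± 13.6 CPM to 174 ± 0.662 CPM (SD; −1.04 ± 0.04, SE), while CDC25C rose to 133% of control (0.41 ± 0.05, SE). Under scaling by library size only, 4 of these genes were higher.

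Finally, genes whose profile resembled that of CDKN1A were identified among 9269 genes that averaged 10 CPM or more. Likeness was measured as the root mean square difference of centered log2 CPM over the 6 libraries. The 5 nearest genes were ANGPTL4 (0.0190), NECTIN1 (0.0292), CADM4 (0.0413), ITGA3 (0.0435) and TRIM47 (0.0474), against a median of 0.530 over all genes compared. ANGPTL4, which encodes an inhibitor of lipoprotein lipase, was at 49.2, 53.3 and 54.1 CPM in control cells and at 26.3, 23.0 and 25.9 CPM in silenced cells. As for CDKN1A, control replicate 1 was the lowest control and IRF1shRNA replicate 2 the lowest of its group. GADD45A ranked 344, at 0.162. The likeness rests mainly on the shared difference between the groups and describes only these 6 libraries.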

How the data were processed

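RNA-seq was performed on total RNA from BT-549 cells cultured in triplicate, with TruSeq Stranded mRNA libraries. The file deposited by the authors lists unnormalized read counts for each symbol in 6 samples. Per the labels, processing used CASAVA 1.8.2, STAR 2.7.9a, featureCounts, DESeq2 1.24.0 and the GRCh38.p7 build. Their settings, the gene annotation and whether strand was used are not given in the sources used here. Between 73.0% and 76.1% of counts from 2 to 9 were even in each library, and the reason was not tested, so halved counts were used as an alternative.

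All 6 columns were matched to samples by title. Differential expression was tested in R 4.3.3 with the quasi-likelihood F-test of edgeR 4.0.16, with group as the factor and TMM scaling. Low genes were removed by filterByExpr (minimum count 10), and p-values were adjusted by Benjamini-Hochberg for 18851 genes. SEs were obtained from the log2 fold change and its F statistic. Whether the triplicate cultures were started independently is not given in the sources used here, so p-values measure the spread between these samples, which may be technical. The test was checked on simulated data with few genes changed, equally up and down. Such data cannot check the scaling where many genes change, as here. The alternatives were DESeq2 1.42.0, 3 other scalings, 2 other filters, a replicate block, the halved counts and leaving out each replicate. The 9 genes, the lists and the naming rule were chosen with earlier results of these data known. The rule covered the 9 genes, IRF1, MDM4, the partners in the ratios, the gene with the smallest adjusted p in each direction per list (3 for apoptosis and for paralogs) at a mean of at least 1 CPM, and the 5 genes nearest to CDKN1A. COP1 was listed as RFWD2. Some genes that the rule or the lists cover are not reported here. Lengths and overlaps are from GENCODE 29 (GRCh38), promoters from RefSeq (GRCh38.p14).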

Additional observations from a re-analysis of the deposited data

How the results depend on the processing

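The log2 fold changes of the 9 genes were recomputed under 14 alternatives, 126 values in all, of which none changed sign and 120 kept their call. SESN2 was not called under library size only (−0.12), and lay between −0.22 and −0.13 when single replicates were left out, where the call was lost without control replicate 3. RRM2B was called as higher under upper quartile scaling (0.14), library size only (0.15) and a filter of 1 CPM in 3 or more samples (0.12), and ranged from 0.062 to 0.13 when one replicate was left out, passing without IRF1shRNA replicate 3. Lower genes of p53 regulation numbered 3 under upper quartile scaling and under library size only, as against 5, and from 3 to 4 when one replicate was left out, with 3 in the fit without IRF1shRNA replicate 1. Higher paralogs and partners numbered 2 under the filter of 1 CPM as against 4, since fewer genes were tested, and higher cell cycle genes 4 under library size only as against 2. MDM4, which was never called, changed sign without control replicate 3 (−0.02) and without IRF1shRNA replicate 2 (−0.044, the lowest of a leave-one-out range reaching 0.067). Of all results for the comparisons, 325 of 336 kept their direction and call or stayed within 1.5 times. Ratios of pairs, which are among these results, could not reach or lose a call with so few samples. They were counted as kept as long as their sign held. PFKFB3 passed the test under 3 alternatives. The cause was not tested in the other cases.

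The replicate numbers of the titles were also used as a replicate block. Deviations of same-numbered samples correlated at 0.0203, 0.0196 and −0.0182, and 3 of 6 samples correlated best with their own number. These values showed no pairing by number, and whether same-numbered samples shared a culture or batch was not tested. With the block 4490 genes were higher and 4972 lower, against 4548 and 4971, CDKN1A was at −1.06 and GADD45A at −1.37, and the calls of the 9 genes did not change.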
